A study of Mus musculus with 18 samples.

Results

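The genes described here are 10 members of the prostaglandin pathway in mouse skin, namely the phospholipase Pla2g4a, the cyclooxygenases Ptgs1 and Ptgs2, the terminal synthases Ptges and Ptgds, the catabolic enzyme Hpgd and the prostaglandin E2 receptors Ptger1, Ptger2, Ptger3 and Ptger4. They were taken by gene symbol, and all 10 were found among the 23951 genes of the expression table. RNA-seq had been performed on 18 libraries of sorted ear skin cells, 3 mice for each of 6 groups. Bulge hair follicle stem cells (HF-SC) were sorted as CD45- CD49f-high CD34+ cells, and basal keratinocytes (b-KC) as CD45- CD49f-high CD34- cells. The DKO* mice carried floxed alleles of both JunB and c-Jun, a tamoxifen-inducible Cre under the keratin 5 promoter and the mT/mG reporter, which switches a cell from Tomato (Tom) to GFP when Cre has acted. Their HF-SC and b-KC were sorted into a GFP and a Tom fraction, which gives 4 populations, named by cell type and colour (HF-SC GFP and so on), all from mice 814, 815 and 817. Control mice (Co; 810, 825 and 828) also carried the mT/mG reporter and the keratin 5 Cre, but with wild-type or heterozygous floxed alleles, and the labels name no reporter fraction for them. All mice were given 4 daily injections of 2 mg tamoxifen at 8 weeks of age and were analysed on day 7. Cre acts only in part of the keratin 5 cells in this model, males and females on a mixed background were used, and each mouse gave both of its cell types and, in DKO* mice, both fractions.

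Prostaglandins are short-lived lipid mediators. A phospholipase A2 such as Pla2g4a frees arachidonic acid from membranes, the cyclooxygenases Ptgs1 (COX-1, the constitutive form) and Ptgs2 (COX-2, the inducible form) turn it into prostaglandin H2, and terminal synthases convert that into the final product, prostaglandin E2 in the case of Ptges and prostaglandin D2 in the case of Ptgds. Hpgd starts the breakdown of prostaglandin E2, which otherwise acts on neighbouring cells through the receptors EP1 to EP4, encoded by Ptger1 to Ptger4. In skin, prostaglandin E2 is known for its part in inflammation, keratinocyte growth and hair follicle cycling.

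The depth that the FPKM values imply lay between 16502000 and 26266000 reads a library, and 3 reads on a transcript of 1 kilobase correspond to 0.114 to 0.182 FPKM. The targeted genes went with the labels: mean Jun FPKM in HF-SC was 983 for Co and 62.8 for GFP, and in b-KC it was 952 for Co and 49.6 for GFP, with adjusted p = 1.53e-06 and 2.3e-06 (limma). Jun was also lower in the Tom fractions than in Co, by -1.30 on the log2 scale in HF-SC and by -1.94 in b-KC. The score of 8 bulge HF-SC markers, a mean of log2(FPKM + 1), was 5.39 to 7.25 in HF-SC Co, with the lowest value in mouse 828, where Krt15 is listed at 0, and it was 5.64 to 6.13 in HF-SC GFP, 5.41 to 6.21 in HF-SC Tom and 3.65 as the mean of b-KC Co. Mean Cd34 was 736 FPKM for Co, 198 for GFP and 286 for Tom in HF-SC, and mean Lgr5 was 158, 50.3 and 44.4 FPKM in the same order. The summed FPKM of 6 suprabasal keratinocyte markers was 765 to 976 for Co, 1741 to 3512 for GFP and 1666 to 2110 for Tom in HF-SC, and that of 6 sebaceous markers was 101 to 129, 119.9 to 401 (lowest in mouse 817) and 129 to 180.2 in the same order. In b-KC the suprabasal sum was 6938 to 8633 FPKM for Co, 4904 to 6928 for GFP and 3883 to 6984 for Tom, and the sebaceous sum 574 to 849, 228 to 853 and 146 to 425. The HF-SC Tom libraries also held RNA of blood vessel genes: 12 endothelial markers, none of them at 0 in all libraries of a group, summed to 495.5 to 1608 FPKM there, against 60.02 to 99.6 FPKM in HF-SC Co, 2.05 to 36.5 FPKM in HF-SC GFP and 1.74 to 11.9 FPKM in the b-KC groups. Of 7 mast cell markers, Hdc was at 35.98 to 51.7 FPKM in HF-SC Tom and at most 2.63 FPKM in the other groups, but Kit reached only 2.03 FPKM there, Cpa3, Cma1, Tpsb2 and Fcer1a stayed at or below 0.393 FPKM and Mcpt4 was at 0. Of 10 leukocyte markers it was 1.09 to 2.72 in Co and 1.73 to 27.7 in DKO* libraries. These are bulk values, in which fewer cells of a type and less RNA per cell cannot be told apart.

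Among the promoters of the members, that of Ptgs2 held the widest set of the motifs searched, and it is shown beside those of the other enzymes whose levels differed most between groups. Sequences were taken from RefSeq on GRCm38.p6 for 9 of the 10 members, and Ptger1 had no entry. Start sites are those annotated there, and whether transcription begins at them in these cells was not tested. The 250 bases before the start site are printed 5′ to 3′ on the gene's strand, with motif matches in capitals.
Ptgs2 promoter, chr1:150099781-150100030 (plus strand): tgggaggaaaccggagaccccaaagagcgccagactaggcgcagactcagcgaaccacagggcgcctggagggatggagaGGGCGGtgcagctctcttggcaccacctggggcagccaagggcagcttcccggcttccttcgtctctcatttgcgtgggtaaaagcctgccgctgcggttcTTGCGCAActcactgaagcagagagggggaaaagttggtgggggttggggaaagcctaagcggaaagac
Ptgs1 promoter, chr2:36230176-36230425 (plus strand): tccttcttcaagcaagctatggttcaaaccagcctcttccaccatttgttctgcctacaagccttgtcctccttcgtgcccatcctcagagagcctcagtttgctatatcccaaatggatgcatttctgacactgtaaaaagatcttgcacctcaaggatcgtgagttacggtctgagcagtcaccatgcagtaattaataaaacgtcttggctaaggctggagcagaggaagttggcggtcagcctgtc
Ptges promoter, chr2:30903298-30903547 (minus strand): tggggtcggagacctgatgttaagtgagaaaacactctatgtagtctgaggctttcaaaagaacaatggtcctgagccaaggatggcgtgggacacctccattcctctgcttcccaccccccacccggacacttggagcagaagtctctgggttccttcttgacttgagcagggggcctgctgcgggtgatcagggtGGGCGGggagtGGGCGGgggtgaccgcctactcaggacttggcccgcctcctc
Hpgd promoter, chr8:56294302-56294551 (plus strand): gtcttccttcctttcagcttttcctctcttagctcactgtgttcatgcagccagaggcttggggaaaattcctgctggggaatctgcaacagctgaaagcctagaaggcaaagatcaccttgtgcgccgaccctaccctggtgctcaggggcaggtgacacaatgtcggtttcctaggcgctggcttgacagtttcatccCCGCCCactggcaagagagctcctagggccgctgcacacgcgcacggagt
Ptgs2 just after its start site, chr1:150100039-150100068 (plus strand): cactaCGTCACGTGgagtccgctttacaga
The capitals mark a GC box (GGGCGG, or CCGCCC on the other strand) and, in Ptgs2 alone, a C/EBP motif (TTGCNCAA) from base -69 to base -62 of the start site and, after it, a short CRE site (TGACG, here on the other strand as CGTCA) that overlaps an E-box (CACGTG). Both strands of 300 bases, 250 before and 50 after the start site, were searched in all 32851 mouse promoters of the same length, of which 35.7% held a GC box, 2.94% the C/EBP motif, 20.8% the short CRE site and 7.15% the E-box. The C/EBP motif was added after the Ptgs2 sequence had been seen, so the motif set was partly fitted to this promoter. Without that motif Ptgs2 still held more kinds of motif than any other member. An AP-1 site (TGANTCA), the motif of the Jun and Fos family, was held by 7.81% of all promoters and, among the 10 promoters of the 9 members, by that of Ptgds alone. A TATA motif (TATAAA, in 13.6% of all promoters) was found in Hpgd, just after the start site, and in 1 of the 2 promoters of Pla2g4a, and an NF-kB motif (in 8.46%) in Ptgds. These matches describe the letters in the window and do not show that a factor binds there.

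Levels of the 10 genes fell into 2 ranges. Pla2g4a, Ptgs1, Ptgs2, Ptges, Hpgd and Ptger4 had at least 1 FPKM in all 18 libraries, from 2.01 FPKM for the lowest Ptger4 value to 151 FPKM for the highest Hpgd value. Ptgds reached 1 FPKM in 2 libraries, Ptger1 in 3, and Ptger2 and Ptger3 in none. The test was limited to genes that reached 1 FPKM in 3 or more libraries, which kept 7 of the 10 members, but Ptger1 was kept through the HF-SC Tom libraries alone and is left out of the counts below. A gene passed a comparison at a Benjamini-Hochberg adjusted p under 0.05 from limma, fitted on log2(FPKM + 1) over all 12751 genes tested, and the log2 fold changes given are on that scale.

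**Figure D1:**
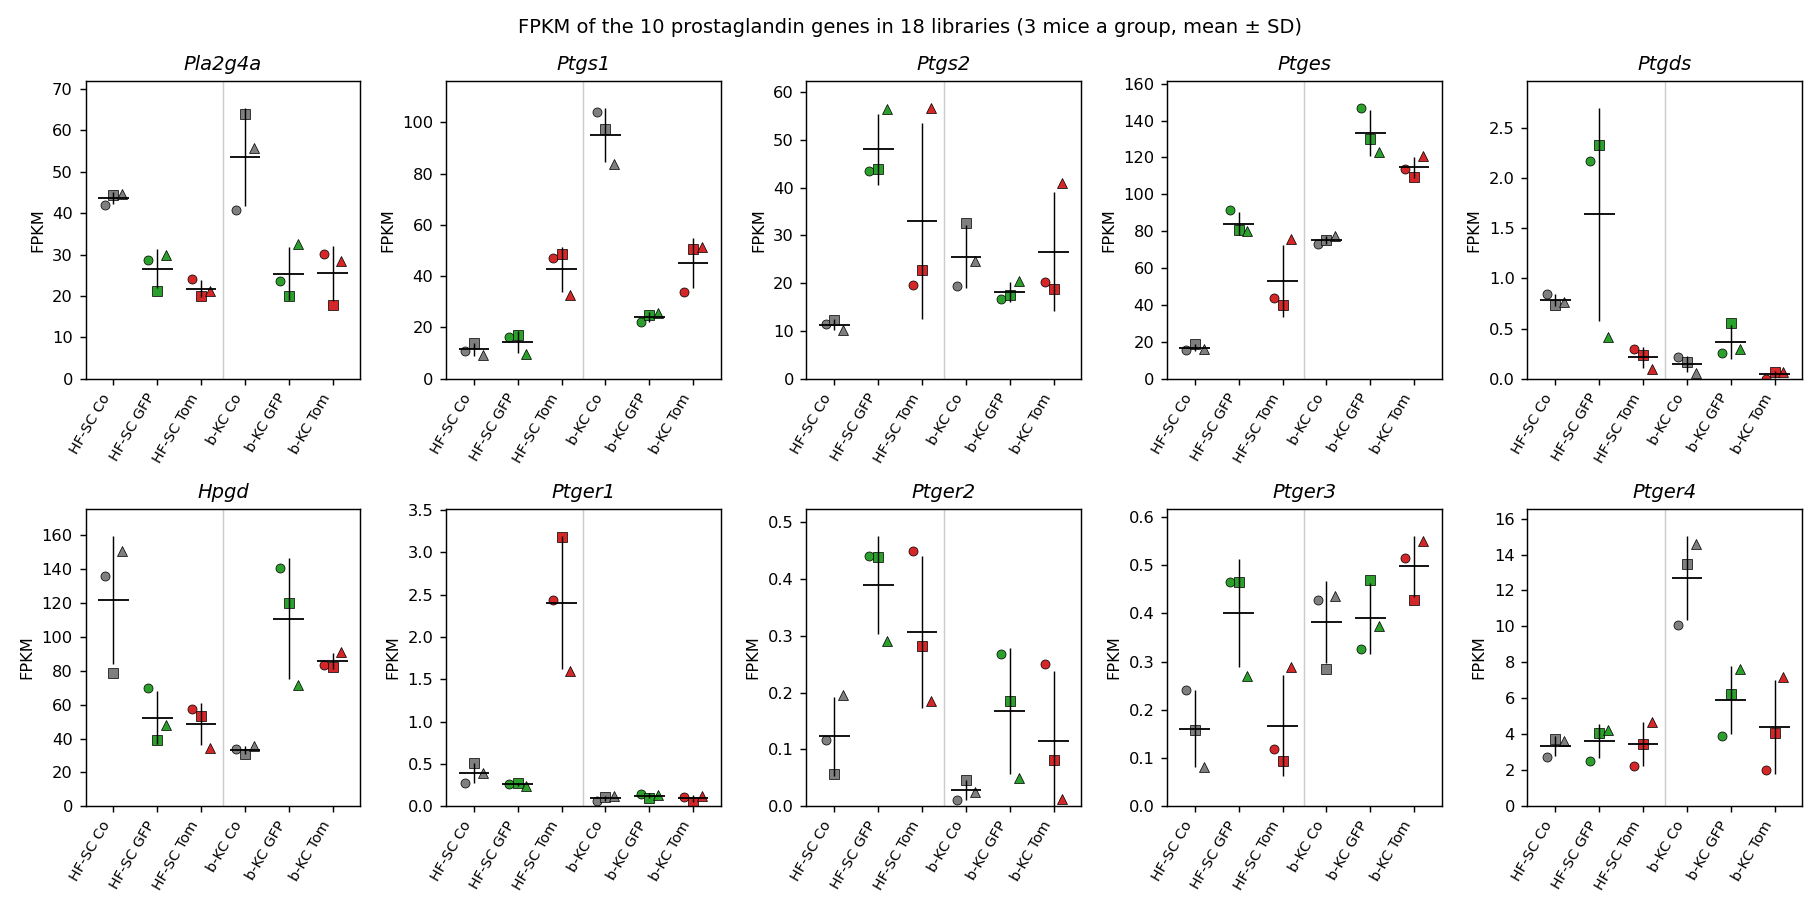
FPKM (linear axes from 0, a scale of its own for each gene) of the 10 genes in each of the 18 libraries, with points for mice (circle 814 or 810, square 815 or 825, triangle 817 or 828), a horizontal line for the group mean and a vertical line for 1 SD, which ends at 0 where it would go below. Hpgd has its highest mean in HF-SC Co and its lowest in b-KC Co, while Ptges has the opposite order in Co; Ptger1 rises above 1 FPKM only in the 3 HF-SC Tom libraries.

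Against Co, most of the 6 members differed in each DKO* population, in opposite directions within the pathway. In HF-SC GFP 4 of 6 passed, with Ptgs2 and Ptges higher and Pla2g4a and Hpgd lower, where 38.5% of all genes tested passed. In HF-SC Tom 5 of 6 passed, the same 4 and Ptgs1, which was higher, where 44.4% of all genes passed. In b-KC GFP 5 of 6 passed, with Ptges and Hpgd higher and Pla2g4a, Ptgs1 and Ptger4 lower, against 41.6% of all genes. In b-KC Tom the same 5 passed in the same directions, against 45.9% of all genes. The GFP and Tom comparisons of a cell type share their 3 Co libraries. With backgrounds this high, a single call says little, and the sizes of the changes are given gene by gene. The members were chosen with earlier results of these data known, so the counts here and below are descriptive only. The bulge, suprabasal and sebaceous marker levels given above vary over the same groups, as do the basal keratinocyte levels given with the processing. The part of these cell types in the changes of the members was not tested.

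**Figure D2:**
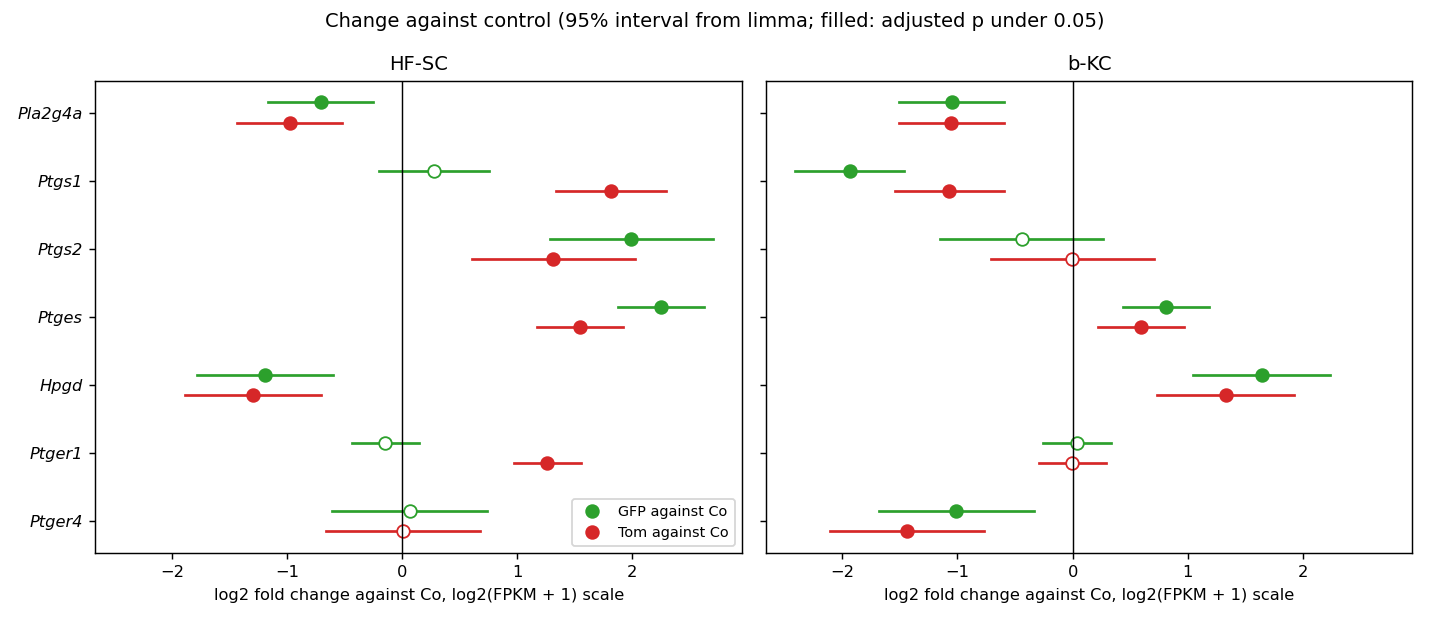
Log2 fold change against Co (horizontal axis, log2(FPKM + 1) scale) with its 95% interval from limma for the 7 members tested, in HF-SC (left) and b-KC (right), green for the GFP and red for the Tom fraction, filled where the adjusted p is under 0.05. Hpgd lies left of 0 in HF-SC and right of 0 in b-KC, and Ptgs1 lies right of 0 in HF-SC Tom and left of 0 in both b-KC fractions.

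Pla2g4a (chr1:151676748-151808420 on NCBIM37, minus strand) encodes cytosolic phospholipase A2 alpha, which frees the arachidonic acid. In HF-SC it stood at 41.9, 44.4 and 44.7 FPKM in Co, at 28.7, 21.3 and 29.9 FPKM in GFP and at 24.1, 20.1 and 21.1 FPKM in Tom. In b-KC it stood at 40.7, 64.1 and 55.9 FPKM in Co, at 23.6, 20.04 and 32.5 FPKM in GFP and at 30.3, 17.8 and 28.3 FPKM in Tom. Every DKO* library lay below every Co library of its cell type, and the GFP and Tom fractions overlapped. The log2 fold change was -0.71 ± 0.21 (SE; adjusted p = 0.0162, limma) for GFP and -0.98 ± 0.21 (adjusted p = 0.00186) for Tom in HF-SC, and in b-KC it was -1.05 ± 0.21 (adjusted p = 0.00153) for GFP and -1.05 ± 0.21 (adjusted p = 0.00111) for Tom. The HF-SC GFP call was lost without mouse 815 (-0.56, adjusted p = 0.0507) and without mouse 828 (-0.69, adjusted p = 0.0611).

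The summed level of the 2 cyclooxygenases was above Co in HF-SC of DKO* mice and below Co in their b-KC. Ptgs1 (chr2:36085946-36107792 on NCBIM37, plus strand) in HF-SC was at 10.9, 13.99 and 9.22 FPKM in Co, at 16.3, 17.0 and 9.42 FPKM in GFP and at 46.9, 48.4 and 32.5 FPKM in Tom. Its b-KC values were 104, 97.5 and 83.6 FPKM in Co, 21.9, 24.9 and 25.4 FPKM in GFP and 34.0, 50.6 and 51.2 FPKM in Tom. Among HF-SC, the GFP libraries overlapped those of Co and the Tom libraries lay above both, and the b-KC fractions lay below their Co with GFP the lowest. Ptgs1 rose in HF-SC Tom (log2 fold change 1.81 ± 0.22 SE, adjusted p = 1.16e-05, limma) and fell in both b-KC fractions (GFP -1.94 ± 0.22, adjusted p = 1.95e-05; Tom -1.07 ± 0.22, adjusted p = 0.00128). In HF-SC GFP its log2 fold change was 0.28 with a 95% interval of -0.20 to 0.75 (adjusted p = 0.349), and without mouse 817, whose library had the lowest value, 0.53 (adjusted p = 0.0235). In HF-SC Tom the endothelial markers were high too and, like Ptgs1, lowest in mouse 817, and their part in the Ptgs1 value was not tested.

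Ptgs2 (chr1:151947254-151955140 on NCBIM37, plus strand; its promoter is printed above) in HF-SC was at 11.4, 12.3 and 10.1 FPKM in Co, at 43.5, 44.0 and 56.5 FPKM in GFP and at 19.6, 22.7 and 56.6 FPKM in Tom. In b-KC it was at 19.4, 32.5 and 24.6 FPKM in Co, at 16.6, 17.4 and 20.5 FPKM in GFP and at 20.2, 18.7 and 40.9 FPKM in Tom. All 6 DKO* HF-SC libraries lay above the 3 Co libraries, while the b-KC groups overlapped, and the highest value of each of the 4 DKO* populations came from mouse 817. The leukocyte marker sum was also highest in mouse 817 in HF-SC GFP (27.7 FPKM), HF-SC Tom (18.3) and b-KC Tom (4.35). In b-KC GFP it was highest in mouse 814 (5.32 FPKM, against 4.45 in mouse 817). The part of leukocyte RNA in the Ptgs2 values was not tested. Ptgs2 rose in the GFP fraction of HF-SC by 1.99 ± 0.33 on the log2 scale (SE; adjusted p = 0.000242, limma), a ratio of mean FPKM of 4.26, and in their Tom fraction by 1.31 ± 0.33 (adjusted p = 0.00489), a ratio of 2.93. Without mouse 817 the HF-SC Tom value was 0.85 (adjusted p = 0.000689). The study placed Ptgs2 among genes enriched specifically in GFP bulge cells. It used these libraries and a further measurement of Ptgs2 expression in sorted populations, so the direction here is not independent evidence. In the fit used here the HF-SC Tom fraction passed as well, with a test and threshold unlike those of the study. In b-KC the log2 fold change was -0.44 in GFP (95% interval -1.15 to 0.26, adjusted p = 0.298; without mouse 817 -0.53, adjusted p = 0.0149) and -0.0018 in Tom (95% interval -0.71 to 0.70, adjusted p = 0.998).

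The share of Ptgs2 in the summed FPKM of both cyclooxygenases gives the balance between them. In Co it was 50.1% ± 2.88 (SD, n = 3) in HF-SC and 21.2% ± 4.83 (SD, n = 3) in b-KC. Within HF-SC it was 76.9% ± 7.67 for GFP and 41.6% ± 18.99 for Tom, with mouse 817 at 63.5% and the others at 29.5% and 31.9%. For b-KC it was 43.0% ± 1.72 for GFP and 36.2% ± 8.74 for Tom, both above Co, while Ptgs1 FPKM was lower and Ptgs2 FPKM overlapped. The sum itself in HF-SC was 22.7 ± 3.51 FPKM for Co, 62.2 ± 3.26 for GFP and 75.6 ± 11.9 for Tom, and in b-KC it was 121 ± 11.2 FPKM for Co, 42.3 ± 3.74 for GFP and 71.8 ± 19.1 for Tom (SD, n = 3). Each of these groups differed from its Co without overlap in sum and share, with the exception of the HF-SC Tom share, and a 2-sided exact permutation test gave p = 0.1, the smallest that 3 against 3 libraries allow (p = 0.4 for the exception).

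**Figure D3:**
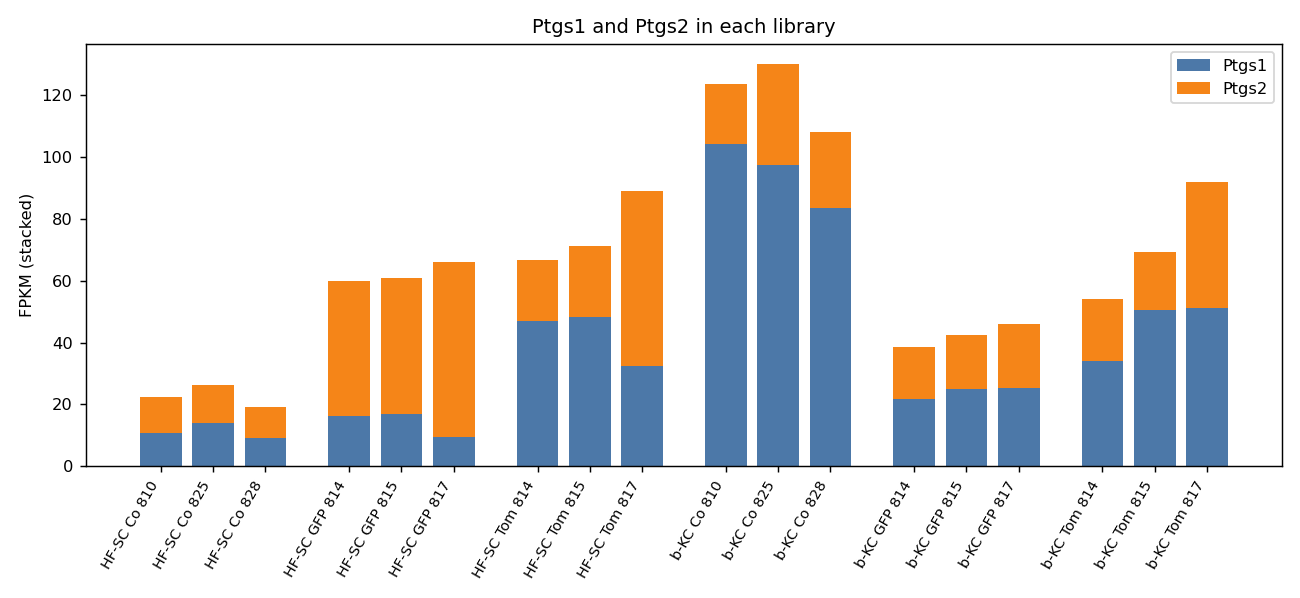
FPKM of Ptgs1 (blue) and Ptgs2 (orange), stacked, in each library (horizontal axis: group and mouse number). The bars of HF-SC Co are the shortest, at 19.3 to 26.3 FPKM in sum, and those of b-KC Co the tallest, at 108 to 130.1 FPKM and mostly Ptgs1.

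Ptges (chr2:30744991-30785383 on NCBIM37, minus strand) encodes the inducible microsomal prostaglandin E synthase and rose in all 4 DKO* populations, alone among the 6 members counted. HF-SC had 15.5, 18.9 and 16.2 FPKM in Co, 91.2, 80.5 and 80.2 FPKM in GFP and 43.7, 40.1 and 75.6 FPKM in Tom. The b-KC had 73.1, 75.5 and 77.4 FPKM in Co, 147, 130.1 and 123 FPKM in GFP and 114, 109 and 121 FPKM in Tom. No DKO* library overlapped the Co libraries of its cell type, and GFP lay above Tom in both cell types. The log2 fold change was 2.25 ± 0.18 (SE; adjusted p = 1.95e-07, limma) for HF-SC of the GFP and 1.55 ± 0.18 (adjusted p = 5.71e-06) for those of the Tom fraction, ratios of mean FPKM of 4.98 and 3.15. In b-KC it was 0.81 ± 0.18 (adjusted p = 0.0023) in GFP and 0.60 ± 0.18 (adjusted p = 0.012) in Tom, ratios of 1.77 and 1.52.

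Ptgds (chr2:25322229-25325566 on NCBIM37, minus strand), the lipocalin-type prostaglandin D synthase, was low and did not pass the filter. Its HF-SC FPKM was 0.848, 0.731 and 0.765 for Co, 2.17, 2.33 and 0.418 for GFP and 0.3004, 0.236 and 0.0963 for Tom. The HF-SC Tom libraries lay below those of Co, while HF-SC GFP held 2 libraries above and 1, of mouse 817, below. In b-KC it lay between 0 and 0.558 FPKM, with b-KC Tom listed at 0, 0.0630 and 0.0628. With no filter on low values, limma gave a log2 difference of 1.03 ± 0.23 (SE; adjusted p = 0.0111) for GFP against Tom in HF-SC, and of 0.47 ± 0.23 (adjusted p = 0.153) for GFP against Co.

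Hpgd (chr8:58773349-58799843 on NCBIM37, plus strand), which inactivates prostaglandin E2, went in opposite directions in the 2 cell types. In HF-SC it was at 136, 78.9 and 151 FPKM in Co, at 69.6, 39.3 and 48.2 FPKM in GFP and at 57.6, 53.2 and 34.4 FPKM in Tom. Its b-KC libraries were at 33.7, 31.0 and 35.8 FPKM in Co, at 141, 120.1 and 71.7 FPKM in GFP and at 83.6, 82.2 and 91.1 FPKM in Tom. All DKO* HF-SC libraries lay below HF-SC Co and all DKO* b-KC libraries above b-KC Co, and the 2 fractions of a cell type overlapped. It fell by 1.19 ± 0.28 on the log2 scale (SE; adjusted p = 0.00339, limma) in GFP and by 1.29 ± 0.28 (adjusted p = 0.00159) in Tom cells of HF-SC. In b-KC it rose, by 1.64 ± 0.28 (adjusted p = 0.000422) in GFP and by 1.33 ± 0.28 (adjusted p = 0.00137) in Tom, ratios of mean FPKM of 3.31 and 2.56.

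Of the 4 receptors, Ptger4 (chr15:5156661-5194187 on NCBIM37, minus strand), the EP4 receptor, had the highest mean FPKM in every group. In HF-SC it was at 2.74, 3.75 and 3.62 FPKM in Co, at 2.53, 4.05 and 4.27 FPKM in GFP and at 2.27, 3.47 and 4.71 FPKM in Tom. Values in b-KC were at 10.1, 13.4 and 14.6 FPKM in Co, at 3.88, 6.23 and 7.66 FPKM in GFP and at 2.01, 4.06 and 7.21 FPKM in Tom. The 3 HF-SC groups overlapped, and both b-KC fractions lay below b-KC Co. In b-KC it fell by 1.01 ± 0.32 on the log2 scale (SE; adjusted p = 0.0189, limma) in the GFP and by 1.44 ± 0.32 (adjusted p = 0.00185) in the Tom fraction. The b-KC GFP call was lost without mouse 815 (-1.06, adjusted p = 0.086), without mouse 825 (-0.96, adjusted p = 0.0692) and without mouse 828 (-0.91, adjusted p = 0.0867). In HF-SC the log2 fold change was 0.06 in GFP (95% interval -0.61 to 0.74, adjusted p = 0.888) and 0.0081 in Tom (95% interval -0.66 to 0.68, adjusted p = 0.986). Its exons share 1015 of 6648 bases with Gm15937 and 82 with Ttc33 on the other strand, and the libraries carry no strand information. Ttc33 fell in both HF-SC fractions (GFP -0.71, adjusted p = 0.00769; Tom -0.74, adjusted p = 0.00551), had log2 fold changes in b-KC of 0.04 for GFP (adjusted p = 0.885) and -0.15 for Tom (adjusted p = 0.557), and was higher in HF-SC Co than in b-KC Co (0.87, adjusted p = 0.00131), while Gm15937 was not analysed here.

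Ptger1 (chr8:86190732-86196652 on NCBIM37, plus strand), the EP1 receptor, stood apart in HF-SC Tom. Its HF-SC FPKM was 0.281, 0.514 and 0.394 for Co, 0.258, 0.279 and 0.242 for GFP and 2.44, 3.18 and 1.60 for Tom, and between 0.0487 and 0.146 in the 9 b-KC libraries. No other library came near the 3 HF-SC Tom libraries, and the mean was 6.07 times that of HF-SC Co (log2 fold change 1.26 ± 0.14 SE, adjusted p = 3.67e-06, limma). Since the gene entered the test through these libraries, it had to differ. The endothelial markers were high in the same 3 libraries and, like Ptger1, lowest among them in mouse 817. Their part in the Ptger1 value was not tested.

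**Figure D4:**
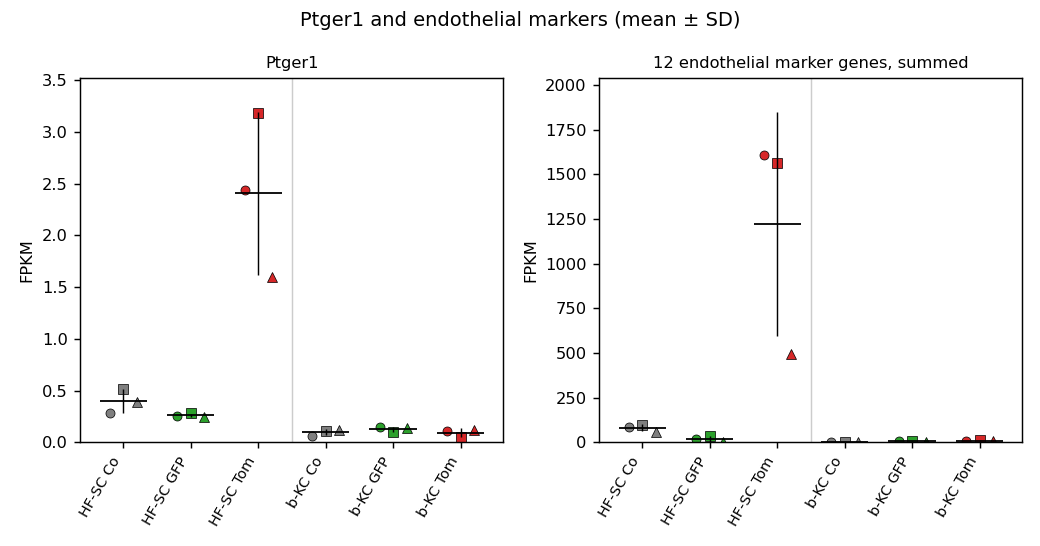
FPKM (linear axes from 0) of Ptger1 (left) and summed over 12 endothelial markers (right), in each library, with the mean as a horizontal and 1 SD as a vertical line that ends at 0. Both are highest in HF-SC Tom, where mouse 817 (triangle) has the lowest of the 3 values: 1.60 and 495.5 FPKM.

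Ptger2 (chr14:45607870-45623495 on NCBIM37, plus strand), the EP2 receptor, and Ptger3 (chr3:157229856-157307722 on NCBIM37, plus strand), the EP3 receptor, never reached 1 FPKM. Ptger2 in HF-SC was at 0.116, 0.0568 and 0.196 FPKM in Co, at 0.440, 0.438 and 0.290 FPKM in GFP and at 0.449, 0.283 and 0.185 FPKM in Tom. Its HF-SC GFP libraries lay above Co, and in b-KC it ranged from 0.0114 to 0.268 FPKM. Ptger3 in HF-SC was at 0.242, 0.159 and 0.0813 FPKM in Co, at 0.466, 0.465 and 0.271 FPKM in GFP and at 0.120, 0.0943 and 0.288 FPKM in Tom, and in b-KC between 0.284 and 0.551 FPKM. Both were above Co in all 3 HF-SC GFP libraries, and with no filter on low values limma gave adjusted p = 0.0199 for Ptger2 (log2 fold change 0.31) and adjusted p = 0.0181 for Ptger3 (0.27). Ptger4 made up 83.0% ± 1.72 (SD, n = 3) of the summed FPKM of the 4 receptors in HF-SC Co and 96.1% ± 0.798 in b-KC Co, against 76.7% ± 7.88 for GFP and 53.9% ± 13.8 for Tom cells of HF-SC and 88.8% ± 4.62 for GFP and 82.9% ± 11.7 for Tom cells of b-KC. In HF-SC Tom the FPKM of Ptger4 itself overlapped Co and that of Ptger1 was higher, while in both b-KC fractions the FPKM of Ptger4 was lower.

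Between the 2 fractions of the same mice, 2 of 6 members differed in HF-SC and 0 in b-KC, where 8.63% and 1.71% of all genes tested passed. In HF-SC, Ptgs1 was lower in GFP than in Tom cells (log2 difference -1.54 ± 0.22 SE, adjusted p = 0.000192, limma), and Ptges was higher (0.71 ± 0.18, adjusted p = 0.0181). The Ptges call was lost when these groups alone were fitted with the mouse as a fixed block (adjusted p = 0.164) or without it (adjusted p = 0.259), without mouse 814 (0.54, adjusted p = 0.295) and without mouse 815 (0.56, adjusted p = 0.329). For Ptgs2 the HF-SC difference was 0.68 (95% interval -0.03 to 1.38, adjusted p = 0.277), and without mouse 817, which had near-equal values in both fractions, 1.02 (adjusted p = 0.00104). In b-KC the 0 calls compare with Ptgs1 at an unadjusted p under 0.05, where the log2 difference was -0.86 ± 0.22 (adjusted p = 0.0659). With the mouse as a random block that call was made (adjusted p = 0.0187), as it was with a fixed block (adjusted p = 0.0321) and without mouse 817 (-0.80, adjusted p = 0.0245). GFP lay below Tom in all 3 mice.

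In the control mice the 2 cell types differed in 5 of 6 members, where 51.9% of all genes tested passed. Hpgd was 3.64 times as high in HF-SC Co as in b-KC Co (log2 difference 1.78 ± 0.28 SE, adjusted p = 7.57e-05, limma), and Ptgs1, Ptges and Ptgs2 were lower. Ptgs1 had a log2 difference of -2.97 ± 0.22 (adjusted p = 3.89e-08), Ptges of -2.10 ± 0.18 (adjusted p = 1.23e-07) and Ptgs2 of -1.09 ± 0.33 (adjusted p = 0.0125). The receptor gene Ptger4 was lower as well, by -1.64 ± 0.32 (adjusted p = 0.000468). The Ptgs2 call was lost without mouse 825 (-0.96, adjusted p = 0.0865) and without mouse 828 (-1.02, adjusted p = 0.0782). Pla2g4a differed by -0.26 (95% interval -0.72 to 0.19, adjusted p = 0.322), and its libraries overlapped. With no filter on low values, Ptgds was higher in HF-SC Co than in b-KC Co, at mean values of 0.781 and 0.147 FPKM (0.64 ± 0.23 SE, adjusted p = 0.0408, limma). In the same fit Ptger3 was lower, at 0.161 and 0.383 FPKM (-0.25 ± 0.08 SE, adjusted p = 0.0187), and Ptger2 did not pass (0.13, adjusted p = 0.316). Ptger1, at 0.397 ± 0.117 FPKM for HF-SC and 0.0953 ± 0.0293 FPKM for b-KC (SD, n = 3), differed by 0.35 ± 0.14 on the log2 scale (adjusted p = 0.0451), a call lost without mouse 810, 814, 815, 825 or 828 in turn (adjusted p up to 0.209).

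Whether the change from Co differed between the cell types was tested as an interaction, taken as the HF-SC change minus the b-KC change. For the change from Co to GFP, 4 of 6 members passed, against 12.5% of all genes tested. The difference was -2.83 ± 0.40 for Hpgd (SE; adjusted p = 0.000347, limma), 2.43 ± 0.47 for Ptgs2 (adjusted p = 0.00342), 2.21 ± 0.32 for Ptgs1 (adjusted p = 0.000423) and 1.44 ± 0.25 for Ptges (adjusted p = 0.00154). For the change from Co to Tom, 4 of 6 passed, against 15.8% of all genes. The difference was 2.89 ± 0.32 for Ptgs1 (adjusted p = 3.11e-05), -2.62 ± 0.40 for Hpgd (adjusted p = 0.000381), 1.45 ± 0.45 for Ptger4 (adjusted p = 0.0375) and 0.95 ± 0.25 for Ptges (adjusted p = 0.0168). Leaving out mouse 810 or 828 ended the Ptges call (0.91, adjusted p = 0.0751, and 0.91, adjusted p = 0.0813). The Ptger4 call was lost without mouse 810, 815, 825 or 828 (1.39 to 1.49, adjusted p 0.0964 to 0.173), with a pseudocount of 0.1 (1.66, adjusted p = 0.0557) and with no filter on low values (adjusted p = 0.0605). With the mouse as a random block, 2 more calls were made, Ptgs2 for the change to Tom (1.31 ± 0.36, adjusted p = 0.0138) and Ptger4 for the change to GFP (1.07 ± 0.31, adjusted p = 0.0223). For Pla2g4a the differences were 0.34 (95% interval -0.30 to 0.99) and 0.08 (95% interval -0.57 to 0.72).

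The level of Ptges relative to Hpgd sets an enzyme that makes prostaglandin E2 against one that breaks it down. The ratio of their FPKM was 0.114, 0.240 and 0.108 in HF-SC Co and 2.17, 2.43 and 2.16 in b-KC Co. In HF-SC it was 1.31, 2.05 and 1.66 in GFP and 0.760, 0.754 and 2.196 in Tom, above all Co libraries. In b-KC it was 1.04, 1.083 and 1.72 in GFP and 1.36, 1.33 and 1.32 in Tom, below all Co libraries. Ptges and Hpgd both rose there, Hpgd by the larger log2 fold change, whereas in HF-SC Ptges rose and Hpgd fell. The 2 cell types lay far apart in Co. In each DKO* fraction they overlapped through mouse 817 alone, without which HF-SC lay above b-KC in GFP and below b-KC in Tom.

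Of 34 other genes of the pathway, 21 passed the filter. The phospholipases among them moved in both directions. Pla2g4e, a further cytosolic phospholipase A2, in HF-SC was at 0.534, 0.789 and 0.247 FPKM for Co and at 26.4, 25.8 and 12.3 FPKM for GFP, and it rose in all 4 DKO* populations, in HF-SC by 3.82 ± 0.42 on the log2 scale for GFP (SE; adjusted p = 5.14e-06, limma) and 2.30 ± 0.42 for Tom (adjusted p = 0.00043), and in b-KC by 2.004 ± 0.42 for GFP (adjusted p = 0.00186) and 1.51 ± 0.42 for Tom (adjusted p = 0.00896). Pla2g12a, a secreted form, rose in all 4 as well, by 0.55 to 0.89. Pla2g4f rose in both HF-SC fractions (GFP 1.504, adjusted p = 0.000102; Tom 0.82, adjusted p = 0.00885) and fell in both b-KC fractions (GFP -0.71, adjusted p = 0.0204; Tom -0.70, adjusted p = 0.0206). Like Pla2g4a, Pla2g6 fell in both HF-SC fractions (GFP -0.41, adjusted p = 0.0282; Tom -0.63, adjusted p = 0.00192), and the secreted phospholipase Pla2g2f fell in HF-SC Tom (-1.24, adjusted p = 0.000138) and in both b-KC fractions (-1.20 in GFP, adjusted p = 0.000352, and -1.82 in Tom, adjusted p = 6.83e-06).

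Among the other terminal synthases, Ptges2 and Ptges3, further prostaglandin E synthases, rose in all 4 populations, by 0.63 to 1.08 and by 0.66 to 1.38 on the log2 scale. Hpgds, the haematopoietic prostaglandin D synthase, rose in both HF-SC fractions (GFP 2.14, adjusted p = 0.00859; Tom 2.01, adjusted p = 0.011) and in Tom b-KC (1.48, adjusted p = 0.0479, limma). Its b-KC Tom libraries stood at 25.0, 21.6 and 4.47 FPKM, and mouse 817 had the lowest of the 3 values in every DKO* population. Akr1c18, an aldo-keto reductase, fell in both b-KC fractions (GFP -2.10, adjusted p = 0.0212; Tom -2.70, adjusted p = 0.00438). Its b-KC GFP libraries were at 41.6, 42.5 and 6.14 FPKM, and without mouse 817, the lowest, the GFP value was -1.24 (adjusted p = 0.000477). Within b-KC the sebaceous marker sum was lowest in mouse 817 too, at 228 FPKM in GFP and 146 FPKM in Tom. The part of sebaceous cells in the Akr1c18 and Hpgds values was not tested. Of the transporters, Slco2a1, which takes prostaglandins up, was at 75.3, 107 and 90.1 FPKM in HF-SC Tom against 22.2, 20.9 and 17.98 FPKM in HF-SC Co (2.09 ± 0.20 SE, adjusted p = 7.74e-07), rose in HF-SC GFP (0.61, adjusted p = 0.0219) and fell in b-KC (-0.78 in GFP, adjusted p = 0.00579, and -0.74 in Tom, adjusted p = 0.00611). Abcc4, which exports them, rose in both HF-SC fractions (GFP 1.55, adjusted p = 2.99e-06; Tom 2.10, adjusted p = 1.09e-07), while in b-KC its GFP and Tom values did not pass. Endothelial markers were high in HF-SC Tom too, with mouse 817 the lowest, as it was for Hpgds and Abcc4 but not for Slco2a1, and their part in the HF-SC Tom values of these genes was not tested.

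Over the 21 genes, 9 rose and 2 fell in GFP and 10 rose and 4 fell in Tom cells of HF-SC, and 6 rose and 6 fell in GFP and 7 rose and 6 fell in Tom cells of b-KC. Of all 12751 genes tested, 2364, 2843, 2588 and 2881 were higher in these comparisons, in the same order, and 2545, 2815, 2713 and 2976 lower. The median log2 fold change of the 21 was 0.52, 0.55, 0.26 and 0.04, beside -0.05, -0.04, -0.03 and -0.02 over all genes tested. The list behind the 21 was chosen with earlier results of these data known, so these counts and medians are descriptive only. Of the 50 calls, 23 were lost in at least 1 of the fits that left out a mouse. Among them were Pla2g4e in b-KC Tom (without 828), Pla2g4f in both b-KC fractions, Pla2g6 and Ptges2 in HF-SC GFP, Pla2g12a in both HF-SC fractions, Ptges3 in HF-SC Tom, Hpgds in all 3 populations, Akr1c18 in b-KC GFP (without 825 or 828) and Slco2a1 in HF-SC GFP, with adjusted p up to 0.205 for these. Pla2g2d, which had passed in both b-KC fractions, was lost in both, with adjusted p up to 0.217 in GFP and 0.13 in Tom.

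**Figure D5:**
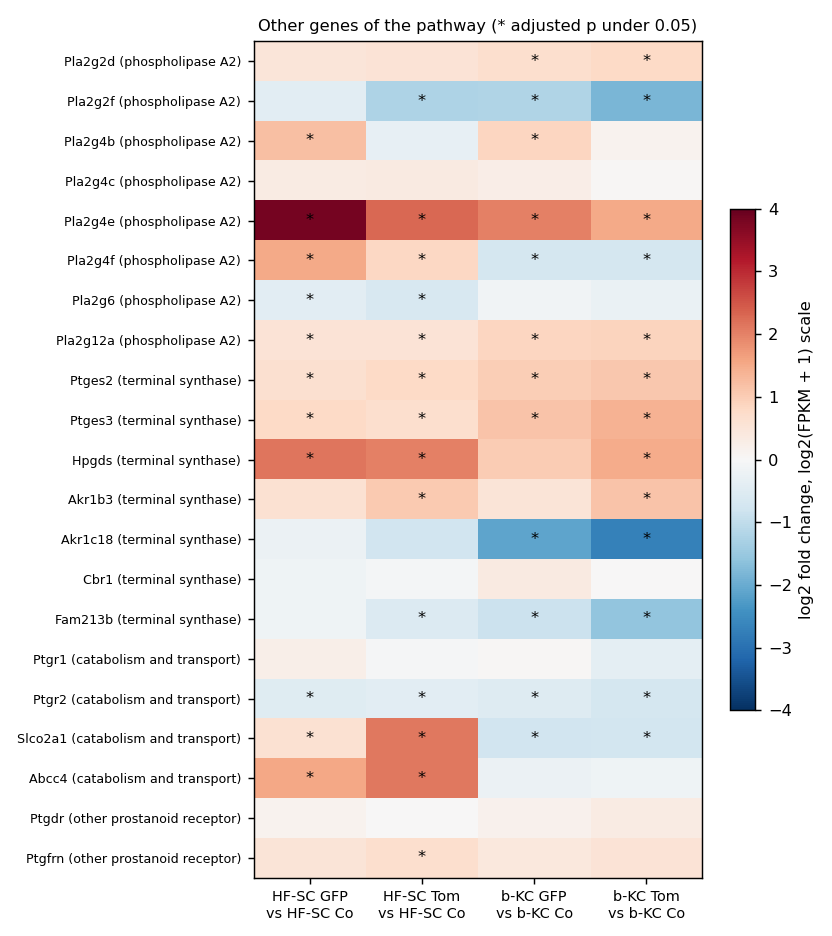
Log2 fold change against Co (colour, red for higher and blue for lower) of the 21 other pathway genes tested, with their role, in the 4 DKO* populations; an asterisk marks an adjusted p under 0.05 (limma). Pla2g4e, Pla2g12a, Ptges2 and Ptges3 are red and marked in all 4 columns, and Akr1c18 and Pla2g2f are darkest blue in the b-KC columns.

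The tested genes whose log2(FPKM + 1) over the 18 libraries was most like that of each member were named by Pearson's r, as a description of libraries that share mice and fall into 6 groups. Ptgs2 was most like the matrix metalloproteinase genes Mmp1b (r = 0.893) and Mmp3 (r = 0.850), and then Eaf1 (r = 0.849). Ptges was most like Crispld2 (r = 0.986), Zc3h12a (r = 0.980) and Uck2 (r = 0.979). For Ptger1 the likest genes were Vcam1 (r = 0.991), Thsd7a (r = 0.991) and Scarf1 (r = 0.991). Ptger1 passed the filter through the 3 HF-SC Tom libraries alone, so its r is set by those libraries and supports nothing. For Ptger4 the likest genes were Ccdc85b (r = 0.958), Cish (r = 0.957) and the AP-1 gene Fosl1 (r = 0.953). Ptgs1 had Ppp2r5a (r = 0.934), Ripply3 (r = 0.924) and Nsg1 (r = 0.916), Pla2g4a had Ttc3 (r = 0.923), Fbxo3 (r = 0.919) and Ivd (r = 0.909), and Hpgd had Tsen15 (r = 0.877), Irak1bp1 (r = 0.871) and Scnm1 (r = 0.870).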

How the data were processed

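The libraries had been made with a template-switching kit and non-directional tagmentation, and sequenced as 51-base single reads. The authors aligned them to NCBI37/mm9 with TopHat 2.0.10 and Bowtie 1.0.0, allowing 2 mismatches and 20 multihits, and computed FPKM per gene with Cufflinks 2.2.1; the builds GRCm38 and mm10 also stand in the submitters' processing notes. The deposited FPKM values are normalized to transcript length and library size, with any further scaling not given in the sources used here. Multihits leave near-identical paralogs uncertain, and overlapping genes cannot be separated without strand. The FPKM table gives no read counts, so depth was estimated from the steps between low values of genes with 1 transcript, of which 75.0% to 79.5% a library lay within 0.1 of a whole read; this was too few to recover counts.

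Groups followed the sample labels, and no library was left out. The 12751 of 23951 genes that reached 1 FPKM in 3 or more of the 18 libraries were fitted with limma 3.58.1 in R 4.3.3 on log2(FPKM + 1), each of the 6 groups having its own mean and the variance a trend. The Benjamini-Hochberg adjustment was made separately in the 9 comparisons. The log scale understates changes of low genes. The script was tested on simulated data. Same-numbered libraries came from the same mouse: their deviations from the group means correlated with r = 0.59, 0.084 and 0.43 for GFP with Tom in HF-SC, 0.24, 0.67 and 0.69 for the same in b-KC and 0.32, 0.31 and 0.20 between the cell types of Co, and a fit with the mouse as a block was an alternative. Shares and sums were compared with 2-sided exact permutation tests. Members, lists of pathway genes and marker lists were chosen with earlier results of these data known. All 10 members are named whatever their values, other pathway genes may be named where they pass a comparison, and for each member tested the 3 genes with the highest Pearson's r are named.

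Gene positions are those of GENCODE M1 on NCBIM37, and promoter sequences those of RefSeq on GRCm38.p6. The other marker lists gave, as summed FPKM over libraries, 5832 to 16869 for 6 basal keratinocyte genes, 1.67 to 121 for 7 fibroblast genes and 1.66 to 22.4 for 6 melanocyte genes. Within b-KC the basal sum was 15554 to 16869 for Co, 6515 to 10889 for GFP and 6312 to 16637 for Tom. Krt14 and Krt15 are listed at 0 in some libraries, which can be a failed estimate and lowers those sums. Python 3.11.15 with pandas 2.3.3, numpy 2.4.6, scipy 1.17.1 and matplotlib 3.10.9 was used for the rest.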

Additional observations from a re-analysis of the deposited data

Results flagged for a closer look

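The results here were marked because the change from Co differed between HF-SC and b-KC by an interaction term in limma; each value is the HF-SC change minus the b-KC change on the log2(FPKM + 1) scale. For the change from Co to GFP these were Ptgs1 (2.21, adjusted p = 0.000423), Ptgs2 (2.43, adjusted p = 0.00342), Ptges (1.44, adjusted p = 0.00154) and Hpgd (-2.83, adjusted p = 0.000347). For the change from Co to Tom they were Ptgs1 (2.89, adjusted p = 3.11e-05), Ptges (0.95, adjusted p = 0.0168), Hpgd (-2.62, adjusted p = 0.000381), Ptger1 (1.26, adjusted p = 0.000447) and Ptger4 (1.45, adjusted p = 0.0375). In Hpgd the sign itself differed, since all DKO* libraries lay below Co in HF-SC and above Co in b-KC, and for the change to Tom it differed in Ptgs1 too, which was above Co in HF-SC and below Co in b-KC. Ptger1 entered the test through the HF-SC Tom libraries alone, so that its difference here was fixed by the filter and its p supports nothing. Its value stands in libraries with high endothelial marker FPKM, and their part in it was not tested.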

How the results depend on the processing

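Of the 54 pairs of a comparison and 1 of the 6 members counted, 34 passed, and 28 of these stayed past the threshold under each alternative run other than the stricter rule, which was applied to counts alone; 6 missed it under at least 1, and 0 of the 34 changed sign. Of the 20 that did not pass, 6 passed under at least 1 alternative. The alternatives were a pseudocount of 0.1, no filter on low values, the compared groups alone, no variance trend, rescaled libraries, the replicate block and leaving out each mouse.

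With adjusted p under 0.01 and a log2 change of 2 or more in size, the counts of 6 members passing against Co became 1 for GFP and 0 for Tom in HF-SC and 0 for both in b-KC, and they became 0 between the HF-SC fractions, 2 between the cell types of Co and 2 for the interaction of the change to Tom, where 3.07%, 4.09%, 1.87%, 2.75%, 1.98%, 5.65% and 1.98% of all genes passed. Between the HF-SC fractions 1 member passed in a fit of these groups alone and 1 with the mouse as a fixed block, and between the b-KC fractions 1 passed with the mouse as a random block and 1 as a fixed block. Pairing by the replicate block (consensus correlation 0.27) changed the calls given in the report and no other. Leaving out 1 mouse gave 1 to 3 members between the HF-SC fractions (1 without 814 or 815), 0 to 1 between the b-KC fractions (1 without 817) and 2 to 5 for the interaction of the change to Tom (2 without 810 or 828).

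Sign changes were limited to values near 0 when a mouse was left out. Ptger4 ranged from -0.043 to 0.25 in HF-SC GFP and from -0.18 to 0.22 in HF-SC Tom against Co, and from -0.0031 to 0.14 between the HF-SC fractions. Hpgd ranged from -0.080 to 0.37 between the HF-SC fractions, Pla2g4a from -0.092 to 0.18 between the b-KC fractions and from -0.097 to 0.23 for the interaction of the change to Tom, and in b-KC Tom against Co Ptgs2 ranged from -0.35 to 0.20 and Ptger1 from -0.023 to 0.029. Depth limits the lowest values of Ptgds, Ptger2 and Ptger3, and 3 mice a group limit exact tests to p = 0.1.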
